A study of Homo sapiens with 5 samples.

Results

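WNT5A, a secreted ligand of non-canonical Wnt signalling, was examined together with 9 further genes of the pathway. The ligands were WNT5A, WNT5B and WNT11, the receptors were ROR1, ROR2, FZD2 and FZD7, and the beta-catenin targets were LEF1, AXIN2 and DKK1. All probe sets that the platform annotation gives to these 10 genes were taken, 22 in all, out of 19775 genes named on the array. The genes were chosen with results of these arrays in view. Their differences between groups are therefore given as a description with no p-value, and how many of them a fit over all probe sets called is given only beside the share it called of all. Genes outside the 10 are given with the adjusted p of that fit, except the cell type markers and the genes nearest to WNT5A in profile.

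RNA of cells labelled HEK293-PRL-1 (2 arrays) was set against RNA of HEK293-vector cells (3 arrays). HEK293 is a line derived from human embryonic kidney. The HEK293-PRL-1 cells carry a stable pcDNA4-PRL-1 construct and the controls a stable empty pcDNA4 vector, with no other treatment named for either line. PRL-1 is a small protein tyrosine phosphatase encoded by PTP4A1. No source used here says whether a line is a clone or a pool, and the transgene cannot be told apart from other differences between the lines. The replicates are independent cultures of these lines, so a p-value covers only the spread between cultures. A further PRL-1 array had been removed by the authors because its sample did not differ from controls in PRL-1 by qRT-PCR.

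Wnt ligands bind Frizzled receptors at the cell surface. With the coreceptors LRP5 and LRP6 they stabilise beta-catenin, which enters the nucleus and acts through TCF and LEF factors on targets such as AXIN2. WNT5A and its relatives act mostly without beta-catenin, through Frizzled receptors and the receptor tyrosine kinases ROR1, ROR2 and RYK, and direct cell polarity and movement. In the mouse kidney, Wnt11 is known for its part in branching of the ureteric bud.

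Of the 5 arrays, vector replicate 3 was the least like the rest, with Pearson correlations of log2 signal of 0.938 to 0.947, where the remaining arrays had 0.954 to 0.964 with each other. The brightest probe set of PTP4A1 read 7913 and 7239 on the arrays labelled PRL-1, against 7463, 7533 and 6807 on vector arrays, and the groups overlapped. The log2 difference, PRL-1 minus vector, lay between 0.06 and 0.15 in its 4 tested probe sets (limma adjusted p from 0.737 to 0.892). The PRL-1 line had been characterised by the authors beforehand as overexpressing PRL-1. Whether these probe sets read the construct is not known here, and directions refer to arrays labelled PRL-1. Among 7 markers of the line, NEFL, KRT8, KRT18, VIM and PAX2 were at or above a signal of 100 on every array, while NEFM and NEFH were below it on all. Their summed signal was 51593 to 52093 on the arrays labelled PRL-1, against 51426 to 60156 on vector arrays, with KRT8 and KRT18 higher and VIM and PAX2 lower without overlap. Of 7 fibroblast markers, 2 were at or above 100 on every array, and COL1A2 and PDGFRB were below it on all. Their summed signal was 1323 to 1770 on the arrays labelled PRL-1, against 1550 to 1863 on vector arrays. The sum of 5 endothelial markers did not overlap, at 453.8 to 495.5 on the arrays labelled PRL-1, against 530.9 to 821.9 on vector arrays. Most of it was the brightest probe set of PECAM1, while CDH5, KDR and TIE1 were below 100 on all arrays. By qRT-PCR on other cultures the paper reported PECAM1 as higher in HEK293-PRL-1 cells, the other direction. The sums of the leukocyte and hepatocyte markers were 244.9 to 288.8 and 491.4 to 544.9 on the arrays labelled PRL-1, against 284 to 403.7 and 479.2 to 695.7 on vector arrays. None of these markers was called, and their part in the results was not tested.

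The start regions of WNT5A are shown because its probe sets had the lowest log2 differences of the 18 tested ones. RefSeq gives 2 windows for it in GRCh38.p14, and which start the cells used was not measured. In each window the letters run from 250 bases before the start, and the capitals mark the 50 bases from the start onward.
WNT5A, chr3:55487257-55487556, minus strand: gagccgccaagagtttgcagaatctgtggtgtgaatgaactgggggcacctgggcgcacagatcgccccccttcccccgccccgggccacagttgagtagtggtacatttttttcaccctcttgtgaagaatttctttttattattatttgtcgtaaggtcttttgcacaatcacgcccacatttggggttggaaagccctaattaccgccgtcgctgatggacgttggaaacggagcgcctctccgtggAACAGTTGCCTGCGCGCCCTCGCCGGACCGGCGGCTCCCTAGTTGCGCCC
WNT5A, chr3:55481349-55481648, minus strand: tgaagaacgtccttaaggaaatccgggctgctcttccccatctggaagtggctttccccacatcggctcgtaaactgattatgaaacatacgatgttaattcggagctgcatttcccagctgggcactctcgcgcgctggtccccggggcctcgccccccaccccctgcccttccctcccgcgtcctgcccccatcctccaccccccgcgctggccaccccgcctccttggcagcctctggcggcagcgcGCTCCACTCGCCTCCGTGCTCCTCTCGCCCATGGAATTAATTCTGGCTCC
The start region of DKK1 is shown because it held the most matches to the core that TCF and LEF factors bind. That ranking covers the 6 genes with a window, and WNT11, FZD2, FZD7 and AXIN2 were not searched. Capitals mark the letters CTTTGA or CTTTGT or their reverse complements, which were searched on both strands and do not overlap each other here.
DKK1, chr10:52314031-52314330, plus strand: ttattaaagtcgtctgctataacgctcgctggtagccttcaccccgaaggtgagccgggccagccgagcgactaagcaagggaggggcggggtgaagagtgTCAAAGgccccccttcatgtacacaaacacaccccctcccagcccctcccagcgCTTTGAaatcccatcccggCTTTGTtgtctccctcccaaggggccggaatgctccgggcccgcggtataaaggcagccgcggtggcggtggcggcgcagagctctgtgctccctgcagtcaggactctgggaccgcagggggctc
Windows were found for 6 of the 10 genes (8 windows of 300 bases). DKK1 held 3 matches, which begin 149, 95 and 76 bases before the start, and ROR2 held 1, which begins 195 bases before it. No match was found in the windows of WNT5A, WNT5B, ROR1 and LEF1. Of 35116 windows of the same length in the table, 26.2% held a match and 0.88% held 3 or more.

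Of the 22 probe sets, 18 passed the filter on dim signal, a value of at least 100 on at least 2 arrays. They cover 9 of the 10 genes, all but WNT11. In the limma fit over 33818 probe sets 1 of the 18 was called at adjusted p 0.05, a WNT5A probe set lower on arrays labelled PRL-1, beside 0.192% of all probe sets called in either direction, 0.133% lower and 0.0591% higher. Since this contrast chose the genes, nothing is read from the count. In 7 of the 18 the groups did not overlap, 4 higher and 3 lower on arrays labelled PRL-1. Over all tested probe sets the share without overlap was 28.9%, with 12.8% higher and 16.1% lower. The median log2 difference was 0.03 over the 18, with 9 above 0 and 9 at or below it, beside -0.04 over all tested probe sets. The 18 probe sets shared no direction.

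WNT5A was lower in cells labelled PRL-1 in both of its probe sets. The first, 205990_s_at, read 1021 and 854.1 on the arrays labelled PRL-1, against 1661, 1639 and 1759 on vector arrays. The second, 213425_at, gave 668 and 768.9 on the arrays labelled PRL-1, against 1281, 1303 and 1447 on vector arrays. The groups were well apart in both, and each group's arrays lay close together. The first averaged 937.5 ± 118 (SD, n = 2) in cells labelled PRL-1 and 1686 ± 64.1 (SD, n = 3) in vector cells, 1.81-fold lower with a log2 difference of -0.85. The second averaged 718.4 ± 71.3 (SD, n = 2) and 1344 ± 89.9 (SD, n = 3), 1.87-fold lower with a log2 difference of -0.90. The probe set called in the fit was the second. In RNA of whole cultures, fewer cells expressing WNT5A and less WNT5A RNA per cell cannot be told apart. Of all tested probe sets, 3.13% and 2.78% had a lower difference than these. Leaving out each array in turn gave differences of -0.98 to -0.72 and -1.01 to -0.80, and -0.82 and -0.85 without vector replicate 3. That a probe set was called is no test of WNT5A, and the call was lost when any array other than vector replicate 3 was left out.

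WNT5B, the closest relative of WNT5A among human Wnt ligands, was dim and variable. Its brightest probe set, 221029_s_at, gave 178.3 and 223 on the arrays labelled PRL-1, against 255.8, 91.3 and 204.4 on vector arrays. A further tested probe set, 223537_s_at, gave 122.2 and 103.1 on the arrays labelled PRL-1, against 143.2, 26.6 and 155 on vector arrays. In both the low value was that of vector replicate 2, and the groups overlapped. The log2 differences of 0.24 and 0.42 were smaller than the residual SD between arrays of a group, 0.65 and 1.18 on the log2 scale. Without vector replicate 2 they turned to -0.20 and -0.41. The third probe set stayed under 50 on all arrays and was not tested. WNT11, the ligand of ureteric bud branching, lay between 14.8 and 15 on the arrays labelled PRL-1 and between 11.8 and 22.1 on vector arrays, too dim for a fold.

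**Figure D1:**
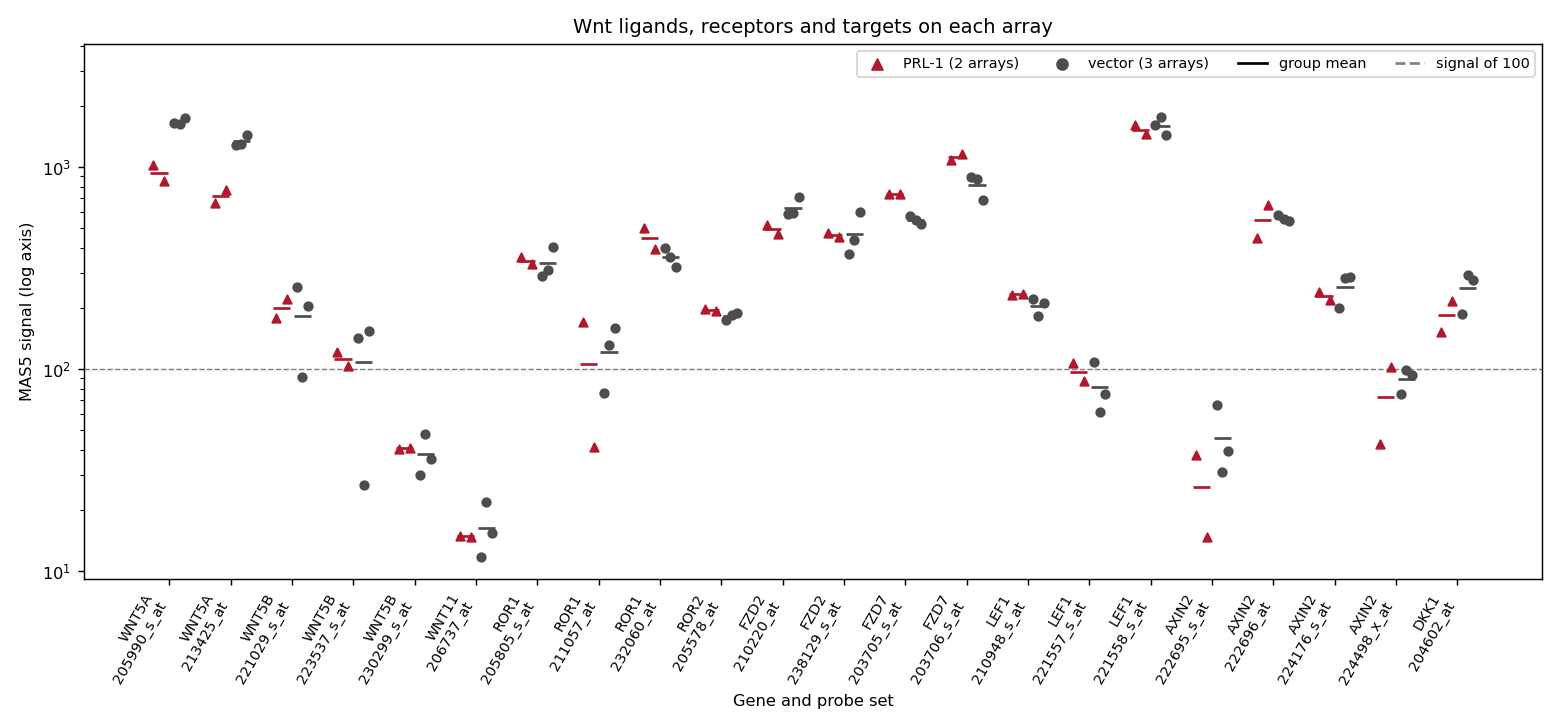
MAS5 signal on a log axis for all 22 probe sets of the 10 genes, with the 2 arrays labelled PRL-1 as triangles on the left and the 3 vector arrays as circles on the right of each position, horizontal bars for group means and the filter value of 100 dashed. Both WNT5A probe sets separate, with arrays labelled PRL-1 at 668 to 1021 and vector arrays at 1281 to 1759, whereas WNT11 lies under the line on all arrays.

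FZD7, a Frizzled receptor, was higher in cells labelled PRL-1 in both of its probe sets. The probe set 203705_s_at read 737.4 and 735.4 on the arrays labelled PRL-1, against 570.7, 545.1 and 523.6 on vector arrays. The probe set 203706_s_at read 1090 and 1159 on the arrays labelled PRL-1, against 896.3, 871.4 and 689.9 on vector arrays. Every array labelled PRL-1 lay above every vector array in both. The means were 736.4 ± 1.43 (SD, n = 2) in cells labelled PRL-1 and 546.5 ± 23.6 (SD, n = 3) in vector cells for the first, 1.35-fold higher with a log2 difference of 0.43. For the second they were 1125 ± 48.4 (SD, n = 2) and 819.2 ± 113 (SD, n = 3), 1.38-fold higher with a log2 difference of 0.47. Of all tested probe sets, 7.19% and 6.18% had a higher difference. Without vector replicate 3 the differences were 0.40 and 0.35.

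FZD2, a Frizzled receptor that also serves WNT5A, gave different pictures in its 2 probe sets. The probe set 210220_at read 514.8 and 468.4 on the arrays labelled PRL-1, against 585.2, 591 and 715.7 on vector arrays, a log2 difference of -0.35 with no overlap between groups. Without vector replicate 3, the highest array, it was -0.26. The probe set 238129_s_at read 470 and 448.7 on the arrays labelled PRL-1, against 370.5, 435.1 and 601.4 on vector arrays, and the means of log2 signals differed by 0.00. Without vector replicate 3 that difference was 0.19. The lower value of FZD2 therefore rested on 1 probe set.

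Of ROR1 and ROR2, the receptor tyrosine kinases that bind WNT5A, ROR2 differed little between groups and the ROR1 probe sets varied. ROR2 gave 198.1 and 195 on the arrays labelled PRL-1, against 175.1, 186.4 and 189.4 on vector arrays, so the groups did not overlap, although the log2 difference was only 0.10. It was 0.20 after quantile normalization. For ROR1, 232060_at gave 502.3 and 394.1 on the arrays labelled PRL-1, against 398.9, 359.1 and 319.4 on vector arrays. Its log2 difference was 0.32 with overlapping groups, and lay between 0.14 and 0.49 when each array was left out. The 205805_s_at probe set of ROR1 gave 0.06, and 0.20 without vector replicate 3. The third ROR1 probe set, 211057_at, gave 170.7 and 41.4 on the arrays labelled PRL-1, against 75.8, 131.5 and 159 on vector arrays. The difference of that probe set, -0.47, was set by the lower of the arrays labelled PRL-1, and without that array, replicate 2, it was 0.55. The ROR1 probe sets thus gave no shared direction.

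**Figure D2:**
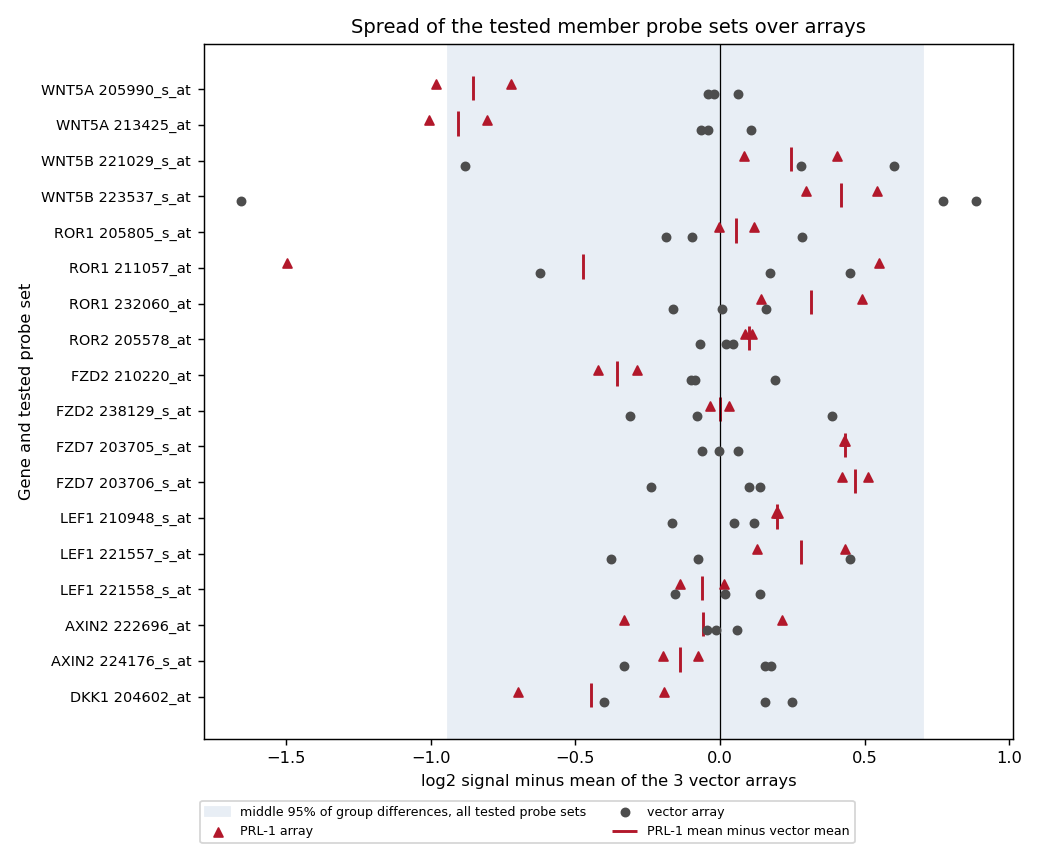
log2 signal of each array minus the mean of the 3 vector arrays, for the 18 tested probe sets, with arrays labelled PRL-1 as triangles above vector arrays as circles, a red bar at the group difference and a band over the middle 95% of group differences of all tested probe sets, -0.94 to 0.70. In WNT5A the arrays of each group lie close together and apart from the other group, in FZD7 the groups are apart, and the WNT5B and ROR1 211057_at arrays scatter widely.

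The beta-catenin targets did not move together. LEF1, a transcription factor that binds beta-catenin and is itself a target, gave 1615 and 1455 in its brightest probe set on the arrays labelled PRL-1, against 1620, 1762 and 1438 on vector arrays. The groups overlapped and the log2 difference was -0.06, and -0.14 without vector replicate 3. The dimmer LEF1 probe set 210948_s_at gave 234.1 and 235.1 on the arrays labelled PRL-1, against 221.8, 182.4 and 211.8 on vector arrays, a difference of 0.20 with no overlap. The third, 221557_s_at, lay near 100 and gave 0.28 with overlap.

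AXIN2, a scaffold of the complex that degrades beta-catenin and a widely used readout of the pathway, gave 444.5 and 648.1 in 222696_at on the arrays labelled PRL-1, against 582.6, 553.4 and 541.5 on vector arrays. One array labelled PRL-1 lay below and the other above all vector arrays, and the log2 difference was -0.06. In 224176_s_at AXIN2 gave 239.8 and 220.6 on the arrays labelled PRL-1, against 200.9, 282 and 285.7 on vector arrays, a difference of -0.14 with overlap, and -0.05 without vector replicate 3. Its other probe sets did not pass the filter. DKK1, a secreted inhibitor that blocks LRP6 and is induced by beta-catenin, gave 152.4 and 216.4 on the arrays labelled PRL-1, against 187.3, 293.7 and 275.4 on vector arrays. The difference of DKK1 was -0.45, with overlap, and lay between -0.70 and -0.19 when each array was left out.

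The profile of WNT5A over the 5 arrays was compared with 27357 named probe sets of other genes, each centred on its vector mean. The nearest, by root mean square difference from the brighter WNT5A probe set, were UNC5B (0.0188), FABP5 (0.0605) and TMPRSS6 (0.0667), nearer than the other WNT5A probe set (0.152). UNC5B, a netrin receptor, gave 1339 and 1162 on the arrays labelled PRL-1, against 2206, 2212 and 2362 on vector arrays. FABP5, which binds fatty acids, gave 6825 and 6127 on the arrays labelled PRL-1, against 10943, 11195 and 11291 on vector arrays. TMPRSS6, a membrane serine protease, gave 177.6 and 159.8 on the arrays labelled PRL-1, against 309.7, 271.7 and 319.4 on vector arrays. This likeness describes 5 values in 2 groups and was chosen out of many probe sets. These genes were picked for likeness to a probe set lower on arrays labelled PRL-1, so no p-value is given for them.

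The rest of the pathway was examined through 101 further genes in 10 lists by role, of which 78 were measured, each by its brightest tested probe set. None was called in the limma fit, where 0.247% of all genes were called. With 2 against 3 arrays, the lack of a call does not show that a gene was unchanged. The methods' t-test, run here on the same 33818 probe sets at adjusted p 0.05, called 0 of them. Its count of 0 here thus carries no information on these genes. The paper used presence calls as its filter and a looser threshold, and with these it did report significant probe sets. At unadjusted p under 0.05, limma gave 12 of 78 (15.4%), beside 11.4% of 14546 genes. The groups did not overlap in 17 genes (21.8%) that were higher and 9 (11.5%) that were lower on arrays labelled PRL-1, beside 13.8% and 17.2% of all genes. Their median log2 difference was 0.04, against -0.03 over all genes.

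Among receptors, RYK, which binds WNT5A through a WIF domain, was higher in all 3 of its probe sets with no overlap between groups. The probe set 214172_x_at read 1879 and 1789 on the arrays labelled PRL-1, against 1237, 1209 and 1008 on vector arrays, a log2 difference of 0.68 (95% interval 0.38 to 0.98, limma adjusted p = 0.172). The probe set 202853_s_at read 2873 and 2702 on the arrays labelled PRL-1, against 2181, 2192 and 1744 on vector arrays (log2 difference 0.46, adjusted p = 0.322 by limma). The third, 216976_s_at, gave 817 and 861.8 on the arrays labelled PRL-1, against 584.8, 503.7 and 772.8 on vector arrays (0.46, adjusted p = 0.48 by limma). RYK was not called, although the first of these probe sets was with array weights (limma adjusted p = 0.0284), with the replicate block (0.0268) and without vector replicate 3 (0.0289). These settings act on the same array and are not separate checks. The weights kept all arrays but gave vector replicate 3 a weight of 0.315, against 1.18 to 1.858 for the others. The block in effect removes vector replicate 3. PTK7, a pseudokinase of planar polarity, gave -0.24 (limma adjusted p = 0.611). Of 8 further Frizzled receptors and LRP coreceptors measured, 5 were above 0. LRP6, the coreceptor of beta-catenin signalling, gave 0.29 (limma adjusted p = 0.474) and was above 0 in all 3 probe sets, and FZD4 gave -0.62 with overlapping groups (limma adjusted p = 0.587). FZD4 was set largely by single arrays, with -0.20 without PRL-1 replicate 1, -1.04 without PRL-1 replicate 2 and -0.33 without vector replicate 3.

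Among the other ligands, 6 of 7 measured genes lay below 0, with a list median of -0.28 and a range of -0.74 to 0.07, and none was called. Of all 14546 genes, 8030 lay below 0. Several of the ligands were dim. WNT7A, at -0.74, reached 100 on only 2 arrays and WNT8A, at -0.43, on 3 (limma adjusted p = 0.823 for both). WNT6 gave 466.2 and 682.4 on the arrays labelled PRL-1, against 754.5, 762.5 and 867.9 on vector arrays (log2 difference -0.49, limma adjusted p = 0.443), and WNT2B gave -0.28 (adjusted p = 0.813 by limma). Without PRL-1 replicate 1, WNT6 gave -0.22, and its other probe sets were under 100 on all arrays. Of the genes that release or inactivate Wnt proteins, WLS, the carrier of Wnt ligands to the cell surface, gave 0.22 (limma adjusted p = 0.56) and was above 0 in all 3 probe sets. NOTUM, an esterase that inactivates Wnt ligands and is a beta-catenin target, gave 197.6 and 197.4 on the arrays labelled PRL-1, against 71.8, 142.3 and 86.3 on vector arrays (limma adjusted p = 0.444). Its vector signals reach below the filter value of 100, so no fold is given. Secreted inhibitors had a median of 0.07 over 6 genes, among them WIF1 at 0.20 and SFRP1 at 0.17 (limma adjusted p = 0.889 and 0.896). Neither of these had a settled direction, with 0.50 and 0.40 without vector replicate 3 and -0.14 and -0.07 without vector replicate 2.

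**Figure D3:**
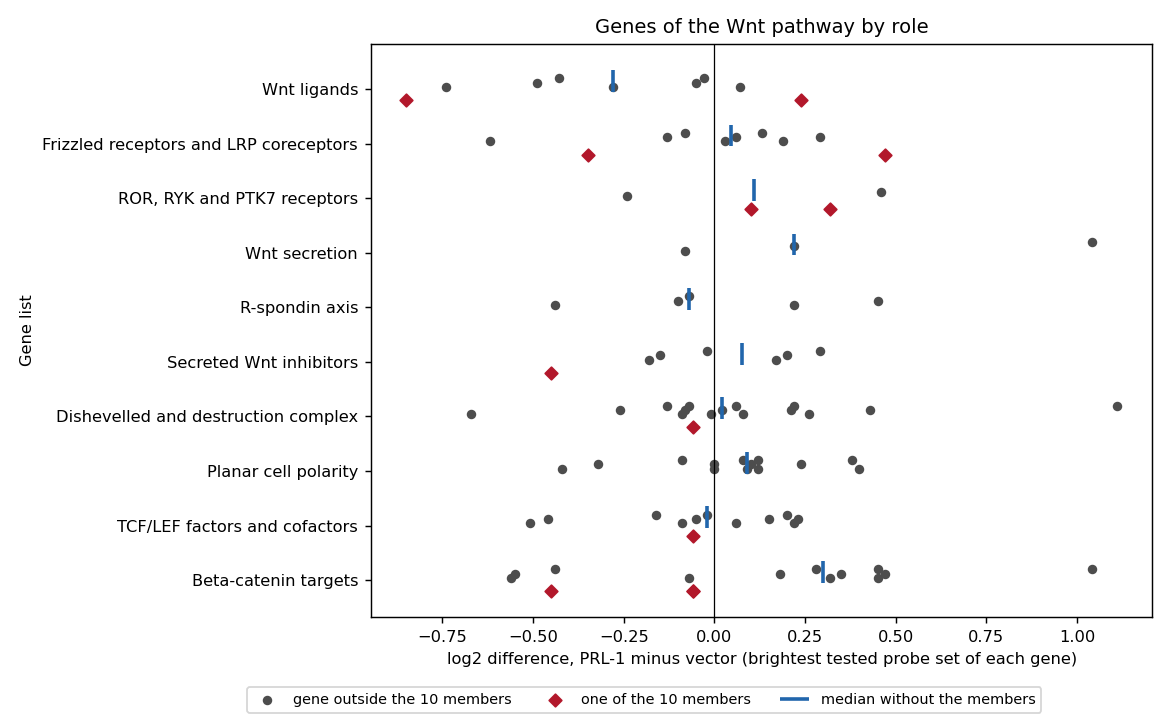
log2 difference, PRL-1 minus vector, of each measured gene by its brightest tested probe set, in 10 lists by role, with the chosen genes as red diamonds and a blue bar at the median of the others. WNT5A is the lowest of the ligands at -0.85, FZD7 the highest of its list at 0.47, and list medians without the chosen genes run from -0.28 for ligands to 0.30 for beta-catenin targets.

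The list of Dishevelled proteins and the destruction complex, which holds genes that relay the Wnt signal, beta-catenin itself and genes that degrade it, had 15 measured genes, 8 above and 7 below 0. AXIN1, the core scaffold of the destruction complex and the paralogue of AXIN2, gave 303.3 and 271.4 on the arrays labelled PRL-1, against 189.1, 103.2 and 119.6 on vector arrays (log2 difference 1.11, limma adjusted p = 0.305). The groups did not overlap, although the vector signals lay near the filter value of 100. GSK3B, the kinase that marks beta-catenin for degradation, gave 1877 and 1818 on the arrays labelled PRL-1, against 1389, 1522 and 1225 on vector arrays (0.43, limma adjusted p = 0.341). It was above 0 in 4 of 5 probe sets. In the list of TCF and LEF factors and their cofactors, TLE2, a corepressor, gave -0.51 and TCF7L1, a TCF factor that mostly represses, gave -0.46 (limma adjusted p = 0.436 and 0.487). Without PRL-1 replicate 1, TLE2 gave -0.29. The other tested TLE2 probe set, 204431_at, gave 0.05 with overlapping groups (limma adjusted p = 0.966), so the lower value rested on 1 probe set. For planar cell polarity the median was 0.09 over 13 genes. ANKRD6, the relative of Drosophila diego, gave 0.38 and CELSR3, a seven-pass cadherin, gave -0.42 (limma adjusted p = 0.451 and 0.578).

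Beta-catenin targets other than LEF1, AXIN2 and DKK1 had a median of 0.30 over 12 genes, with 8 above 0 (66.7%) and 4 below. By limma 4 (33.3%) had unadjusted p under 0.05, and none was called. Of all genes, 44.8% lay above 0 and 11.4% had unadjusted p under 0.05. NOTUM, LGR5, RNF43 and ZNRF3 also stand in other lists. Whether this list differs from all genes was not tested. MYC, a driver of growth, gave 6970 and 6952 on the arrays labelled PRL-1, against 4370, 5188 and 5548 on vector arrays (log2 difference 0.47, limma adjusted p = 0.288, and 0.0437 without vector replicate 3). LGR5, a receptor for R-spondins and a marker of stem cells, gave 933.8 and 824 on the arrays labelled PRL-1, against 607.6, 629.9 and 691.4 on vector arrays (0.45, limma adjusted p = 0.358). NKD2, a feedback inhibitor that binds Dishevelled, went the other way with 514.1 and 520.6 on the arrays labelled PRL-1, against 765.8, 682.9 and 822.5 on vector arrays (-0.55, limma adjusted p = 0.285). In the R-spondin list RNF43, a ligase that removes Frizzled receptors, gave -0.44 with overlapping groups (limma adjusted p = 0.679). Its direction was set by PRL-1 replicate 1, without which it was 0.09, and it was -0.96 without PRL-1 replicate 2.

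**Figure D4:**
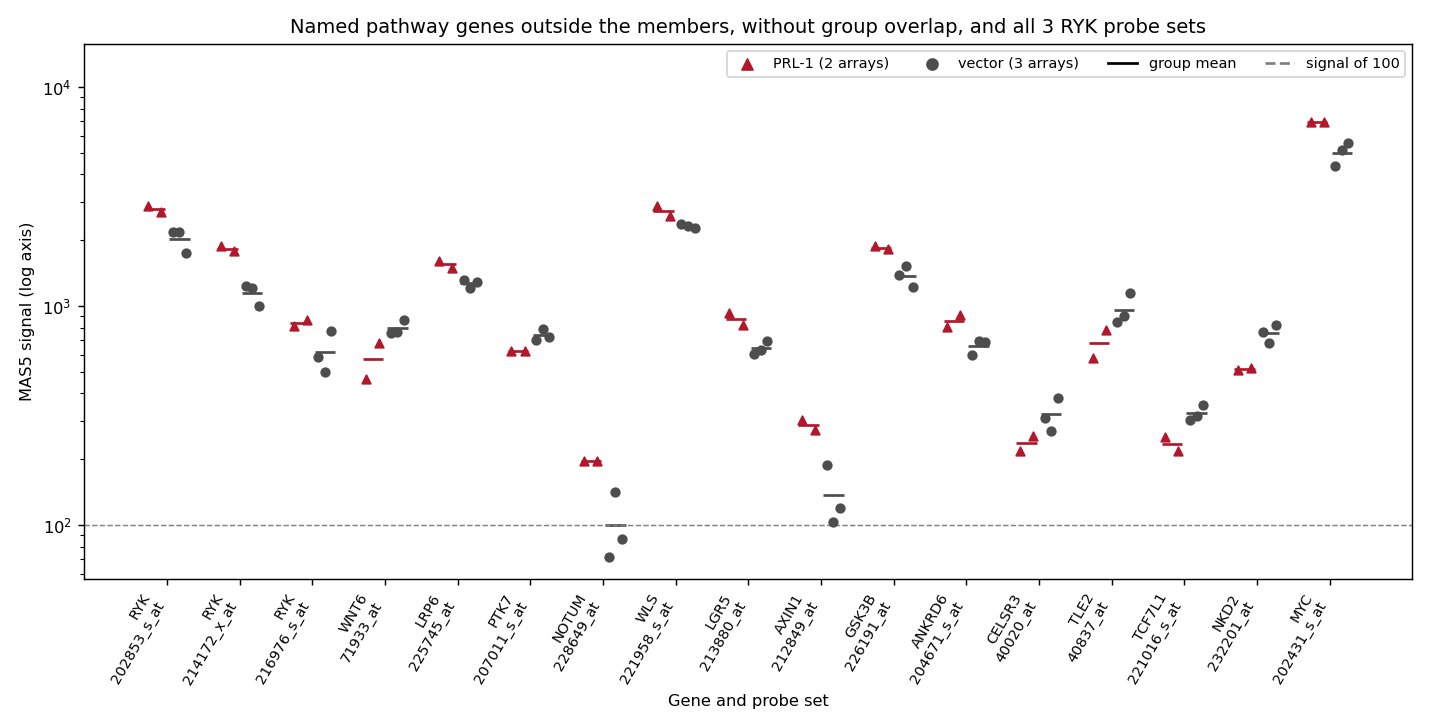
MAS5 signal on a log axis of the 3 RYK probe sets and of the other pathway genes named here whose groups did not overlap, with the 2 arrays labelled PRL-1 as triangles on the left, the 3 vector arrays as circles on the right, horizontal bars for means and the filter value of 100 dashed. The RYK arrays labelled PRL-1 lie above the vector arrays in each probe set, and NOTUM and AXIN1 vector signals reach down to 71.8 and 103.2.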

How the data were processed

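The deposited values are linear intensities, 1 MAS5 signal per probe set, which per the methods the authors made from HG-U133 Plus 2.0 arrays with the affy library at default settings. An ID ending in _s_at or _x_at marks probes that can match several transcripts. The trimmed mean was 500 on all 5 arrays, since MAS5 scales each array, and median signals lay between 124.2 and 166. MAS5 presence calls were not used here. Of 54675 probe sets, 62 controls were left out. Genes were named through the platform annotation (41091 probe sets with 1 symbol, 1801 with several, 11721 with none here), updated to GRCh38.p14 symbols. Probe sets at or above 100 on at least 2 arrays were tested on the log2 scale with limma 3.58.1 in R 4.3.3 (lmFit, eBayes with an intensity trend, group as the only term), two-sided, with Benjamini-Hochberg adjustment over all 33818 and a call at 0.05. The fit was run on simulated data in which all arrays had the same spread. That check concerns the working of the fit and not the differences reported here.

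The members and lists were chosen with earlier results of these data known. Named are the 10 genes with all probe sets, PTP4A1, every called gene and the 2 genes with the smallest p in each list, and the 3 profiles nearest to WNT5A. A log2 difference is the difference of mean log2 signals, and folds derive from it. Levels are not compared between probe sets. Promoter sequences are from RefSeq, GRCh38.p14. Depth does not apply to arrays, and their number limits the precision. Alternatives were the filter, an offset of 32, quantile normalization, median centring, no trend, array weights and a replicate block. Further ones were the methods' t-test, with the filter and threshold used here, and each array left out.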

Additional observations from a re-analysis of the deposited data

How the results depend on the processing

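Both WNT5A probe sets were lower and both FZD7 probe sets higher on arrays labelled PRL-1 in all 15 fits, the reported one included. Their groups did not overlap, so leaving out an array could not turn the sign. The filter, the trend and the methods' t-test leave the difference itself unchanged. This contrast also chose the genes, so the shared direction of the fits is no test of them. The number of called probe sets among the 10 genes was 1 as reported. It was 0 with no filter, after quantile normalization, after median centring, without the trend and with the methods' t-test, and 2 with the filter at 200, with array weights and with the replicate block. Leaving out each array gave 0 to 2 (2 without vector replicate 3). The called probe sets were WNT5A ones in each case, and since this contrast chose the gene, these counts are no test of it. Over all probe sets 65 were called, 9 without the trend, 275 with array weights, 448 with the replicate block and 0 with the methods' t-test, and 11 to 313 when an array was left out (43 without vector replicate 1, 27 without vector replicate 2, 313 without vector replicate 3, 11 and 15 without PRL-1 replicates 1 and 2). For the other pathway genes, each by its brightest probe set, the count was 0, and 1 with the replicate block and 0 to 1 when an array was left out, the 1 being MYC in both. A dimmer RYK probe set outside this count was called with array weights, with the replicate block and without vector replicate 3. Each of these settings lowers the weight of vector replicate 3 or removes it. The cause was not tested.

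The median log2 difference over the tested probe sets of the 10 genes was 0.03. It was -0.03 with no filter and with the filter at 200, 0.11 with array weights and 0.16 with the replicate block. When an array was left out it was -0.05 to 0.16. Without _x_at and _s_at probe sets it was -0.35, but that drops every tested probe set of WNT5B, FZD7 and LEF1 and so covers fewer genes. The sign of the median is thus not settled. Replicate numbers are shared between the groups by label only. Deviations from group means correlated at 0.064 for the replicates numbered 1 and at -0.059 for those numbered 2, and the block in effect removes vector replicate 3. The fits with a single array labelled PRL-1 took its spread from the vector arrays. Probe sets with fewer than 2 arrays at 100 or more were not tested, which holds for WNT11.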

Other observations

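The antisense genes LEF1-AS1 and ROR1-AS1 have probe sets of their own. LEF1-AS1 gave 120 and 112.1 in 243363_at on the arrays labelled PRL-1, against 184.9, 123.5 and 134.6 on vector arrays, a log2 difference of -0.33 (limma adjusted p = 0.794). Its other probe set and that of ROR1-AS1 were under 100 on all arrays.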
